A study of Mus musculus with 2 samples.

Results

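The cells described here are called cycling by the rule that chose them. They are the cells of the mouse tail library in which at least 2 of the 5 genes Mki67, Top2a, Ube2c, Cdk1 and Birc5 had a molecule. Kept cells had between 200 and 4000 detected genes, and mitochondrial RNA made up less than 40% of their molecules. A kept cell was not taken as a member if it held 10 or more molecules of the collagen genes Col1a1, Col1a2 and Col3a1 together, or 2 or more of the keratin genes Krt5, Krt14, Krt1 and Krt10. Of 1964 kept tail cells, 115 met this rule, which is 5.86% (95% exact binomial interval 4.86 to 6.99%, covering counting error only). Both libraries together held 9952 kept cells. The 115 cells are set against the 1450 tail cells under the same limits with none of the 5 genes, called the reference cells.

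Both libraries came from Sox1-GFP mice, whose green fluorescent protein reports Sox1, a transcription factor gene of neuroepithelial cells, and in both only GFP-positive cells were sorted. The tail library came from mice in their first days after birth and the brain library from young adult mice, so tissue and age cannot be told apart between them. Tissue was cut, dissociated with trypsin and sorted, and polyadenylated RNA was counted by the BD Rhapsody method, which tags each cell with a barcode and each RNA molecule with a random tag. Each tissue was 1 library, and how many animals it held was not given in the sources used here. There is no replicate, so no test between groups was made, and every interval covers counting error only.

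The cell cycle passes through S phase, in which DNA is copied, and G2 and M phases, in which the chromosomes are condensed and parted. Genes for replication such as the Mcm helicase subunits are turned on by E2F factors before S phase. Genes for mitosis are turned on later, by the factor NF-Y, which binds the CCAAT box, and by MuvB complexes with MYBL2 and FOXM1, which bind an element called the cell cycle genes homology region. Differentiating multiciliated cells, such as ependymal cells, do not divide, yet they use part of the mitotic machinery to make the many centrioles on which their cilia stand. Those centrioles form on deuterosomes, whose scaffold protein is Deup1, under the control of Mcidas, Ccno and Myb.

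The promoters of the 5 genes that define these cells are shown because these genes chose the cells. They run from 250 bases before to 50 after the start in RefSeq, build GRCm38.p6, 5′ to 3′ on the gene's strand. They lie at chr7:135716330-135716629 (minus strand) for Mki67, a nuclear protein of dividing cells that coats mitotic chromosomes, and at chr11:99024140-99024439 (minus strand) for Top2a, the topoisomerase that untangles DNA. Cdk1, the kinase that starts mitosis, has its promoter at chr10:69352863-69353162 (minus strand). Ube2c, a ubiquitin-conjugating enzyme of the anaphase-promoting complex, has its promoter at chr2:164769679-164769978 (plus strand). Birc5, a subunit of the chromosomal passenger complex, has its promoter at chr11:117848987-117849286 (plus strand). Capitals mark 2 motifs, each searched on both strands. The CCAAT box was searched by its 5 letters, which on the other strand run as ATTGG. The homology region was searched by its core TTTGAA, of 6 letters, seen on the other strand as TTCAAA.
Mki67: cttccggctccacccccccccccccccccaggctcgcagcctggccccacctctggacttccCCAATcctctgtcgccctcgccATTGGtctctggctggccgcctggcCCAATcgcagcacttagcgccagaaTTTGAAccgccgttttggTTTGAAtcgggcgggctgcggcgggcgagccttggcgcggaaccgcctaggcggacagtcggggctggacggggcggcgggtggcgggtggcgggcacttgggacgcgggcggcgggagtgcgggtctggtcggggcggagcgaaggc
Top2a: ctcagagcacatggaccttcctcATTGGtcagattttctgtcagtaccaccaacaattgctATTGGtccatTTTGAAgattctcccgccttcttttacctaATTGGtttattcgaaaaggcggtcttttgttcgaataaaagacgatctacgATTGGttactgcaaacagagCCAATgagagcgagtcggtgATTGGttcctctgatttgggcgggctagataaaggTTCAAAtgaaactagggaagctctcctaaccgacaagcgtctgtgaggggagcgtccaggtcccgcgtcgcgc
Cdk1: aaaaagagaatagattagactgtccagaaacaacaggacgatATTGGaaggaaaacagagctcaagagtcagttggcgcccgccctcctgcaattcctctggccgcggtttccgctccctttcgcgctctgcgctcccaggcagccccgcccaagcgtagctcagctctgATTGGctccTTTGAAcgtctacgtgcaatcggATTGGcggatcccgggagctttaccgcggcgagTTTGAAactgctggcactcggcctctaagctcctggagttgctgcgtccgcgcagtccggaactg
Ube2c: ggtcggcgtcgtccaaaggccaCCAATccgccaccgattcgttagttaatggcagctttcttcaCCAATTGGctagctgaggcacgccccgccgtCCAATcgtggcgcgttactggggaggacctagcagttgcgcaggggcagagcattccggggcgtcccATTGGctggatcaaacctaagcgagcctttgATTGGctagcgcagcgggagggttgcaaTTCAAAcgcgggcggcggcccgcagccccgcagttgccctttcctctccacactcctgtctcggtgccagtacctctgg
Birc5: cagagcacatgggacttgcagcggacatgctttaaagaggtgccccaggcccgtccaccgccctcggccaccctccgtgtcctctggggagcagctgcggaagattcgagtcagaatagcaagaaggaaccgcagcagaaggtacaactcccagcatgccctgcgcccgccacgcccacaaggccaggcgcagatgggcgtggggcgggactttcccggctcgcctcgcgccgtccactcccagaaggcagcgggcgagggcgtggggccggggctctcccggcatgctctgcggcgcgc
CCAAT was found at 3 places in the Mki67 promoter, 6 in Top2a, 3 in Cdk1, 6 in Ube2c and 0 in Birc5. In Ube2c, a pair of these places overlap as a palindrome. TTTGAA was found at 2 places in Mki67, 2 in Top2a, 2 in Cdk1, 1 in Ube2c and 0 in Birc5. Among the 32851 promoters of this length in the table, 37.4% held CCAAT, 17.9% held TTTGAA and 6.95% held both. In the widely used Seurat list of G2 and M phase genes, without the 5 genes, 35 of 47 promoters held CCAAT and 30 of 47 held TTTGAA. In the Seurat S phase list, 23 of 35 held CCAAT and 5 of 35 held TTTGAA. In a list of genes of the multiciliation programme, 5 of 15 held CCAAT and 0 of 15 held TTTGAA. A match is only a match of letters, and its absence says only that these letters are not in this window.

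The 5 genes were present in these cells at low counts. Top2a had a molecule in 88 of the 115 cells, with 0 to 13 molecules in a cell and 241 in all. Cdk1 had a molecule in 76 cells, with 0 to 8 in a cell and 151 in all. Mki67 was found in 68 cells, Ube2c in 54 and Birc5 in 50. These values chose the cells and carry no test. The most frequent pair was Top2a with Cdk1, found together in 61 cells, and the least frequent was Ube2c with Birc5, in 28. Just inside the rule, 54 cells had exactly 2 of the genes, with 2 to 8 molecules of them and a median of 3. Just outside it, 136 cells had exactly 1, with 1 to 4 molecules and a median of 1. Above it, 30 cells had 3 of the genes, 17 had 4 and 14 had all 5.

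The limits on collagen and keratin removed 58 of the 173 kept tail cells that had at least 2 of the genes, 29 for collagen and 29 for keratin. Among collagen-rich cells 29 of 172 had at least 2 of the genes, and among keratin-rich cells 29 of 92. The part of free RNA in these counts was not tested. Of the 339 kept tail cells under the collagen and keratin limits with at least 3 of 12 immature neuron genes, 4 had any of the 5 genes and 1 had at least 2 (0.295%), at a median of 1408 molecules a cell. The cycling cells were deeper than the reference cells, with a median of 1940 molecules (603 to 7090) and 1161 genes against 1186 molecules and 774 genes. Their median share of mitochondrial molecules was 11.8%, against 13.2%. Depth moves the count of cells. When each cell was thinned to 800 molecules before the rule, 61 of 1645 tail cells met it (3.71%). The doublet caller Scrublet marked 7 tail cells and none of the 115. Cells with both Xist and Y-linked molecules, a mark of mixed sexes, numbered 3 in the tail and 0 among the 115. Between the libraries 18 barcodes of kept cells were shared, 2 of them among the 115.

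The label of neural cells held for most of the 115. At least 3 of 12 neural progenitor genes were found in 89 of them (77.4%, 68.7 to 84.7%), against 796 of 1450 reference cells (54.9%). At equal depth of 800 molecules the shares were 35.5% and 41.7%, so the higher share in the cycling cells was not seen at equal depth. Immature neuron genes marked 1 of the 115 and 335 of the 1450. Of glial kinds, the oligodendrocyte list marked 2 cells and the astroglial list 1. Non-neural kinds were few, with 3 endothelial genes or more in 3 cells and 1 cell each for the fibroblast, muscle, macrophage and mural lists. The Schwann cell, keratinocyte, cartilage, erythroid, melanocyte and cerebrospinal fluid-contacting neuron lists marked 0 of the 115. A list of multiciliated ependymal genes marked 50 of the 115 (43.5%, 34.3 to 53.0%) and 280 of the reference cells (19.3%), and at equal depth 32.7% and 12.3%. Of the 115 cells, 57 carried the progenitor list without the ependymal list, 32 carried both, 18 the ependymal list alone and 8 neither these nor the neuron list. This split moved with depth. At 800 molecules the counts were 35, 4, 32 and 39 of 110 cells, in the same order.

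The identity of the cells shifted with the number of the 5 genes detected. The progenitor list marked 64.8% of the cells with 2 of the genes, 86.7% with 3, 82.4% with 4 and 14 of 14 cells with all 5. The ependymal list went the other way, from 61.1% of cells with 2 genes to 36.7% with 3, 17.7% with 4 and 21.4% with 5. Cells with exactly 1 gene, which are outside the rule, also carried the ependymal list often (47.8%). The median depth was 1802 molecules with 2 genes, 1820 with 3, 2246 with 4 and 2128 with 5, and its part in these shares was not tested.

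**Figure D1:**
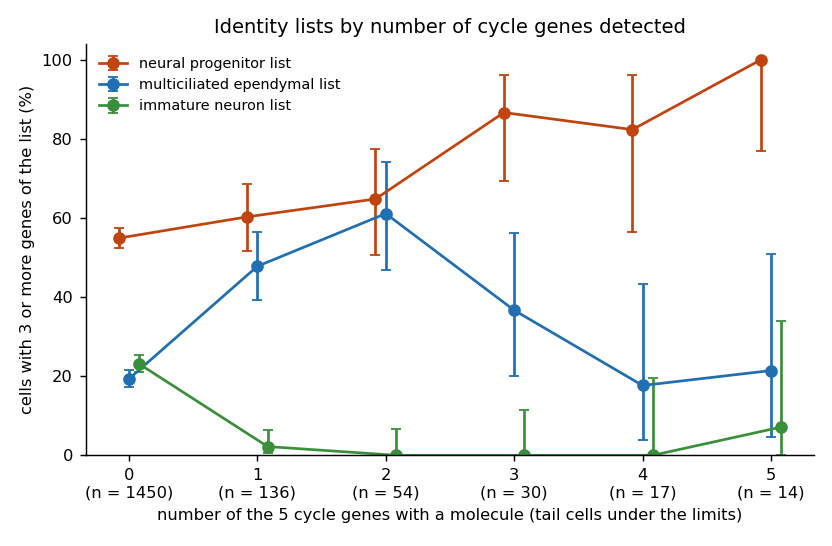
Share of tail cells (y axis, %) with 3 or more genes of each identity list, against the number of the 5 cycle genes with a molecule (x axis, cells under the limits, n below). Points are shares and bars are 95% exact binomial intervals; the ependymal list peaks at 61.1% of cells with 2 genes and falls to 17.7% with 4, while the progenitor list reaches 14 of 14 cells with all 5.

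For levels, the molecules of all cells of a group were pooled, given per 1000000 molecules of that group (CPM) and compared as a ratio with its exact interval. A gene is called past 2-fold when it had at least 50 molecules over both groups, a ratio of at least 2 either way and an interval that leaves out 1. Of 6819 genes tested in the cycling against the reference cells, 486 were higher (7.13%) and 796 lower (11.7%), 18.8% in all with a median ratio of 0.913 over all of them. Scaling by the median ratio, which moved all values by -0.17 on the log2 scale, gave 364 higher and 1068 lower, so the share of higher genes among those past 2-fold went from 37.9% to 25.4%.

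The mitotic genes were higher nearly as a block, but genes of mitosis chose both groups, so this is a description and no test. Of the 27 G2 and M list genes tested outside the rule, 23 were higher past 2-fold and 0 lower. The summed level of the list was 14890 CPM against 1971, a ratio of 7.55 (7.20 to 7.92). Cells with none of the rule genes can be low in genes that move with them. The minimum of 50 molecules was over both groups, so genes scarce in the reference were tested only where the cycling cells held enough. These limits apply to the counts of the other cycle lists below as well. Nusap1, which bundles spindle microtubules, had 80 molecules in 41 of the 115 cells and 1 molecule in the 1450 reference cells, a ratio of 628 (110 to 25130). Hmmr, a spindle protein, had 49 molecules in 33 cells against 2 in the reference. Pbk, a mitotic kinase, had 71 molecules in 39 cells against 3. All of these were nearly absent from the reference cells. Tpx2, which activates the Aurora kinase on the spindle, was 49.4-fold higher (27.9 to 94.0). Prc1, which builds the central spindle, was 45.2-fold higher (26.4 to 82.3). Cdc20, the activator of the anaphase-promoting complex, was 53.2-fold higher (26.3 to 122.0).

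The same held at the kinetochore, where chromosomes meet the spindle. Of its 8 listed genes tested, 7 were higher, among them Spc25 of the Ndc80 complex at 55.0-fold (26.1 to 133.6) and Cenpa, the histone of centromeres, at 37.2-fold (21.1 to 69.9). Zwint was the 1 that was not called, at a ratio of 0.953 (0.672 to 1.32). Of 11 spindle, motor and cytokinesis genes 10 were higher, and of 9 anaphase genes 7. Cdca8, of the same passenger complex as Birc5, was 41.9-fold higher (22.4 to 85.3), and Ckap2l, a mitotic spindle protein, 24.7-fold (17.3 to 36.0).

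Genes of DNA replication were higher as well, by less. Of 16 tested S list genes 12 were higher and 0 lower, with a summed ratio of 3.72 (3.42 to 4.06). Rrm2, the regulated subunit of the enzyme that makes deoxynucleotides, was 28.1-fold higher (15.3 to 55.0). Mcm5 was 4.27-fold higher (2.51 to 7.10) and Mcm4 3.44-fold (2.24 to 5.17). Pclaf, which binds the sliding clamp PCNA at the fork, had 116 molecules in 47 cells against 8 in the reference. Replication licensing genes were higher in 7 of 10, and nucleotide supply genes in 5 of 7. By cell, the cycling cells had 0 to 36 molecules of the S list with a median of 4, and 5 to 141 of the G2 and M list with a median of 25. The G2 and M list had more molecules than the S list in 103 of the 115 cells, fewer in 10 and as many in 2, and 12 cells had none of the S list.

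The cyclins divided by phase. Ccna2, of S and G2 phase, was 58.1-fold higher (33.8 to 107.4) and Ccnb1 and Ccnb2, of mitosis, 90.3-fold (44.0 to 215.5) and 49.8-fold (24.5 to 114.3). The G1 cyclins and kinases were not called, with ratios of 0.805 (0.579 to 1.096) for Ccnd2, 1.07 (0.751 to 1.496) for Ccnd3, 1.03 (0.788 to 1.33) for Cdk4 and 1.22 (0.853 to 1.69) for Cdk6. Of 11 cycle inhibitors tested, 1 was higher and 1 lower. The higher was Cdkn1a, which encodes the inhibitor p21, at 4.34-fold (2.98 to 6.27), and the lower was Foxo3, at 0.403 (0.145 to 0.904).

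Neuronal genes were lower throughout. All 12 immature neuron genes were lower past 2-fold, with a summed ratio of 0.0803 (0.0607 to 0.104). The reference held 335 cells that carry this list. Between cells with the progenitor list and neither the ependymal nor the neuron list, the ratio was 0.679 (0.434 to 1.02). Between cells with the ependymal list it was 0.548 (0.319 to 0.892). Dcx, a microtubule protein of young neurons, had 1 molecule in the 115 cells and 760 in the reference, a ratio of 0.0103 (0.000261 to 0.0578). Ina, a neurofilament gene, had 0 against 757 and was at least 32.1-fold lower, with the limit set at 3 molecules. Tubb3 had 0 against 442 and was at least 18.8-fold lower. Pkd2l1, the channel of neurons that contact the cerebrospinal fluid, had 0 against 473 and was at least 20.1-fold lower, and 6 of 7 tested genes of that neuron list were lower. Insm1 and Dll3, of newly committed neuronal cells, were at 0.188 (0.0892 to 0.348) and 0.196 (0.0714 to 0.434).

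Stmn2, Nhlh2, Chga, St6galnac5, Slc30a3, Zcchc12 and the haematopoietic and neuronal factor Tal1 had 0 molecules in the 115 cells and 212 to 446 in the reference. Miat had 2 molecules against 395 and Pak3 4 against 554. The globin genes Hba-a1 and Hbb-bs were at 0.0657 (0.0327 to 0.118) and 0.0446 (0.00916 to 0.131), and their molecules sat in 23 and 20 of the 1450 reference cells. Without cells carrying 3 markers of a non-neural kind, a choice made after seeing the data, the ratios were 1.81 and 2.04. The same choice brings Fabp4, a fatty acid binding protein of endothelium among the most raised genes at 66 molecules against 3, to 0. Of its molecules in the 115 cells, 86.4% lay in 1 cell.

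Pooled over the 115 cells, progenitor genes were at about the reference level, though the large groups described below lay on either side of it. Of the 12 in the marker list 0 were higher and 2 lower. Sox2 was at a ratio of 1.07 (0.863 to 1.31), Vim at 1.07 (0.981 to 1.17) and Nes at 1.12 (0.633 to 1.87). Fabp7, of radial glia, was at 1.94 (1.72 to 2.18), short of 2-fold. Sox1 itself, the gene the reporter follows, had 9 molecules in 8 of the 115 cells and was at 0.342 (0.154 to 0.661), and Hes5, a target of Notch, had 0 molecules. At an equal 800 molecules a cell, Sox2 was found in 29.1% of the cycling and 27.4% of the reference cells, and Vim in 71.8% and 65.3%. Without thinning, Sox2 was found in 2.33% of the 172 collagen-rich cells, whose median was 1992 molecules. The summed list was at 1.08 (1.02 to 1.15), and at 0.961 under another scaling. Posterior Hox genes, which mark the tail axis, were present in these cells, with 168 molecules. Of 13 tested, 6 were lower and 0 higher, with a summed ratio of 0.520 (0.442 to 0.608) over all reference cells. Between cells with the progenitor list and neither the ependymal nor the neuron list, the summed ratio was 0.795 (0.6245 to 1.001). Between cells with the ependymal list it was 0.836 (0.640 to 1.079). The larger of the groups described below was at 0.744 (0.595 to 0.922) of the reference cells with only the progenitor list of these lists. Over all reference cells, Hoxb13 was at 0.620 (0.462 to 0.816), and Hoxb8 at 0.0889 (0.0182 to 0.263).

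Genes of multiciliation were also raised. So were the endothelial list, at 5.68 (4.22 to 7.63), and the muscle list, at 5.995 (3.57 to 9.98), with 39 of 81 and 25 of 29 molecules in 1 cell each. Of 10 tested genes of that programme 6 were higher and 0 lower, with a summed ratio of 3.66 (3.31 to 4.05). Deup1 was 17.1-fold higher (11.6 to 25.5), Ccno 15.03-fold (10.4 to 22.0) and Myb 7.23-fold (4.97 to 10.5). Plk4 and Stil, which start centriole assembly in dividing and multiciliated cells alike, were 13.3-fold (8.01 to 22.5) and 13.5-fold higher (7.65 to 24.3). The ependymal list, of genes of the ciliary axoneme and Foxj1, was higher in 6 of 11 with a summed ratio of 2.12 (1.96 to 2.30). None of the 172 collagen-rich tail cells, at a median of 1992 molecules, had a molecule of Ccno, Deup1, Myb, Foxj1 or Dynlrb2, which allows a share of up to 1.74%, taking 3 cells as the limit for a count of 0. At 800 molecules a cell, Ccno was found in 20.9% of the cycling and 1.12% of the reference cells, and Foxj1 in 21.8% and 15.1%. With at least 3 of the 5 genes required, the programme was at 1.69 (1.41 to 2.01) and the ependymal list at 0.975 (0.839 to 1.13), so both levels were lower once the cells with exactly 2 genes were left out.

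**Figure D2:**
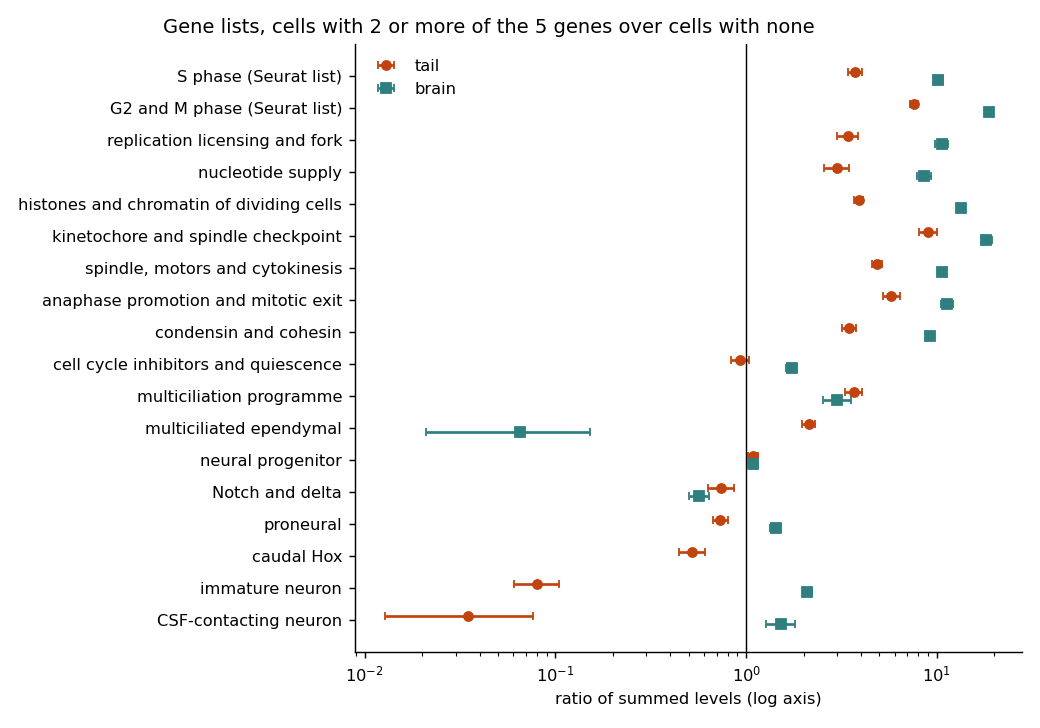
Ratio of the summed level of each gene list (x axis, log scale) in cells with at least 2 of the 5 genes over cells with none, in the tail (circles) and brain (squares) library, with 95% counting intervals; the 5 genes are left out of the lists. Cycle lists other than that of inhibitors lie above 1 in both. The inhibitor list is at 0.933 in the tail and 1.74 in the brain, and the immature neuron list at 0.0803 and 2.09. The caudal Hox list had 0 molecules in the brain cycling cells and has no brain point.

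To see whether one kind of cell made up the 115, they were grouped by their expression with the S, G2 and M, spindle, kinetochore and replication lists left out. Ward clustering into 5 gave groups of 69, 34, 7, 3 and 2 cells, named here by leading genes that the grouping itself used. The 69 cells were led by Lsp1, Igfbp5 and Ntn1, and 62 of them carried the progenitor list and 17 the ependymal list. The 34 cells were led by Deup1, Lrrc23 and Ccno, and 33 of them carried the ependymal list and 20 the progenitor list. With 4 groups, the 34 stayed 34 and the 7 joined the 69 to give 76. With 6 groups both stayed at 69 and 34.

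The other groups were small. The 7 cells were led by Pdgfra, Cntn1 and Lhfpl3, genes of oligodendrocyte precursors, with a median of 890 molecules, and 2 of them carried the oligodendrocyte list. Each of these 3 genes was found in 3 of the 7. The 3 cells were led by Fabp4, Aqp1 and Igfbp7 and all carried the endothelial list. Sox2 had 0 molecules in those 3, so the neural label does not hold for them. The last 2 cells had 603 and 797 molecules and no leading genes.

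The groups of 69 and 34 differed in which of the 5 genes brought them in. In the 69, Mki67 was found in 55 cells (79.7%), Top2a in 54, Cdk1 in 43, Birc5 in 39 and Ube2c in 38. In the 34, Cdk1 was found in 29 cells (85.3%) and Top2a in 27, but Ube2c in 10, Mki67 in 5 and Birc5 in 3. Of the 34, 17 had Top2a and Cdk1 and no other of the 5, against 2 of the 69. Mki67 or Birc5 was found in 65 of the 69 and in 8 of the 34. Of the 34, 28 had exactly 2 of the genes, 6 had 3 and 0 had 4 or 5, while 50 of the 69 had at least 3. The cells of the 34 were deeper, with a median of 2148 molecules against 1714.

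The S phase list was left out of the grouping, though genes that move with it were not, so the levels that follow are a description of the groups. It was at 4904 CPM in the 69 cells, 1117 in the 34 and 928 in the reference cells. The 69 cells were 5.29-fold above the reference (4.81 to 5.80). The 34 cells were at 1.20 of the reference (0.963 to 1.49), and at 1.12 (0.884 to 1.42) of the 280 reference cells that carry the ependymal list, a comparison added after seeing the data. By cell, the 69 had 0 to 36 S list molecules with a median of 6, 29 of them had 10 or more, and 16 had 0 or 1. The 34 had 0 to 11 with a median of 2, 2 of them had 10 or more, and 14 had 0 or 1. At an equal 800 molecules the mean was 4.0 in the 69, 0.824 in the 34 and 0.706 in the reference.

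**Figure D3:**
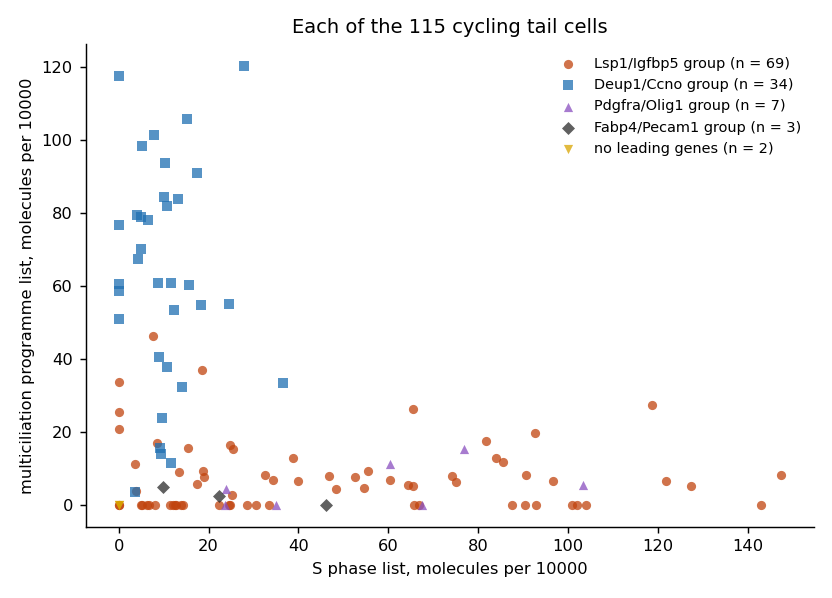
Each of the 115 cycling tail cells by its S phase list (x axis) and multiciliation programme list (y axis), both in molecules per 10000; colour and marker give the 5 groups of the clustering. The 34 cells led by Deup1 and Ccno lie along the y axis and most of the 69 cells led by Lsp1 and Igfbp5 along the x axis, with few cells high in both.

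The G2 and M list was raised in both groups. It was at 17810 CPM in the 69 cells, 10240 in the 34 and 1971 in the reference, which is 9.04-fold (8.57 to 9.53) and 5.19-fold (4.81 to 5.61) above the reference. The lowest cell of the 69 had 5 molecules of the list and the lowest of the 34 had 6. Against the 280 reference cells with the ependymal list, the 34 were at 3.64-fold (3.32 to 3.98), and those cells themselves had 2817 CPM.

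Within the mitotic genes the 34 cells had a part of the set. Cdc20 was at 271 CPM in the 69 cells and 285 in the 34, a ratio of 0.950 (0.544 to 1.69), and Smc4, of condensin, at 1388 and 1104, a ratio of 1.26 (0.968 to 1.64). For these genes the intervals of the ratio include 1. Ckap2l, Nek2 and Tubb4b were higher in the 34 than in the 69, by 2.45-fold (1.68 to 3.61), 2.27-fold (1.07 to 5.01) and 2.73-fold (2.15 to 3.47). Nek2 is a kinase that parts centrosomes, and Tubb4b is a tubulin of axonemes and spindles.

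Other genes of S phase and mitosis had far fewer molecules in the 34 cells than in the 69. Ccna2 had 93 molecules in 42 of the 69 cells and 1 molecule in the 34. Nusap1 had 67 against 1 and Kif23, a motor of cytokinesis, 36 against 1. Aurkb, the kinase of the passenger complex, had 19 molecules in 16 cells of the 69 and 0 in the 34. Mcm4 had 28 against 0, Mcm5 20 against 0 and Mcm6 29 against 1, while Tyms, which makes thymidylate, had 21 against 1. Hmmr had 41 against 3 and Rrm2 41 against 4. The pooled depth was 125400 molecules in the 69 cells and 80590 in the 34. Ccna2 is in none of the lists left out, so the grouping used it.

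Genes of centriole assembly went the other way. Deup1 had 84 molecules in 28 of the 34 cells and 3 in the 69, Ccno 84 in 28 cells and 4, and Myb 54 in 28 cells and 3. Mcidas had 20 molecules in 13 of the 34 cells and 1 in the 69. Plk4 and Stil were higher in the 34 by 4.39-fold (2.15 to 9.67) and 6.002-fold (2.55 to 16.3). The programme list as a whole was at 5894 CPM in the 34, 678 in the 69 and 683 in the reference cells, and the 34 were 3.61-fold (3.20 to 4.08) above reference cells that carry the ependymal list. By cell the 34 had 1 to 26 molecules of the programme with a median of 13.5, and the 69 had 0 to 6 with a median of 1.

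The Cdkn1a signal was in the same cells. It was at 459 CPM in the 34, with a molecule in 22 of them, at 71.8 in the 69 and 47.6 in the reference, a ratio of 6.397 (3.03 to 15.1) between the groups. Progenitor genes were lower in the 34, with a summed ratio of the 69 over the 34 of 3.58 (3.03 to 4.26). Over the reference, their list was at 1.43 (1.34 to 1.53) in the 69 and 0.399 (0.340 to 0.466) in the 34. Fabp7 was at 1770 and 161 CPM, Vim at 3533 and 943 and Sox2 at 638 and 223. H19, a maternally expressed imprinted RNA, was at 19690 and 4877.

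**Figure D4:**
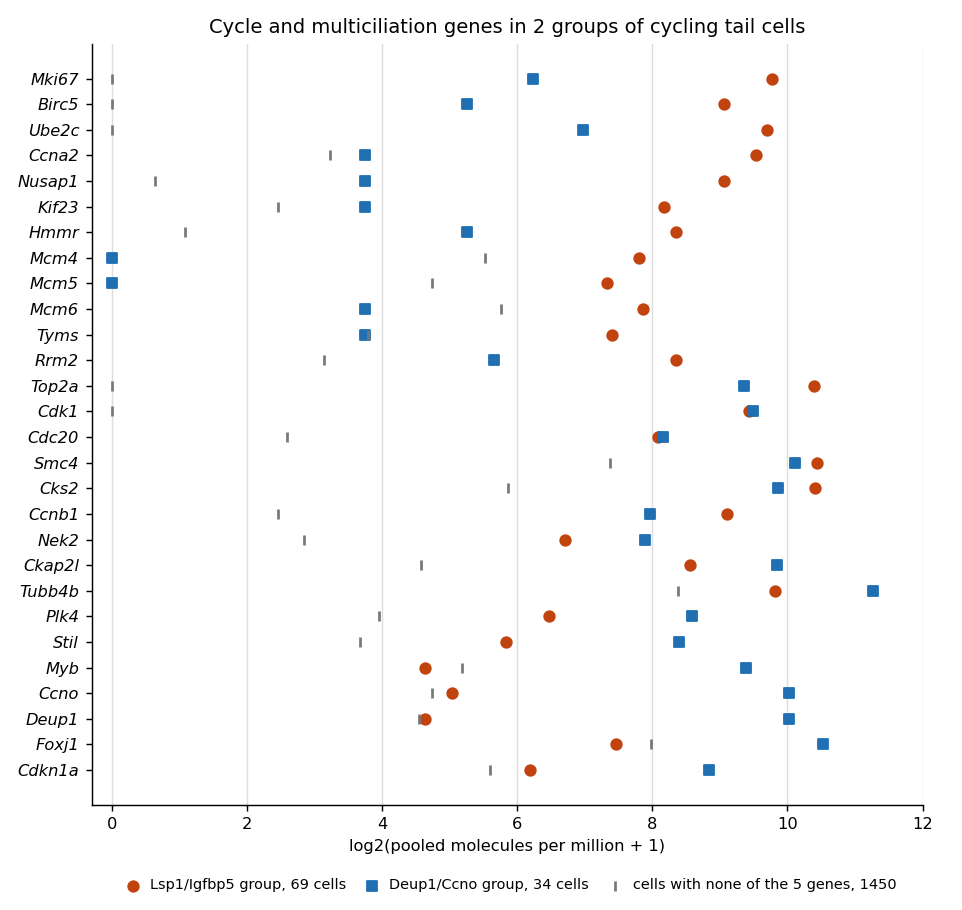
Pooled level of named cycle and multiciliation genes, as log2 of CPM plus 1 (x axis), in the 69 cells led by Lsp1 and Igfbp5, the 34 led by Deup1 and Ccno and the 1450 reference cells, which lack the 5 rule genes by choice. The 5 rule genes chose the cells; of the others, the groups of 69 and 34 meet at Cdc20, part widely at Ccna2, Nusap1 and the Mcm genes, and change order from Nek2 to Cdkn1a.

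A split by list in place of clustering gave the same order, but 33 of the 34 cells carry that list, so it is no separate check. The 50 cells with the ependymal list had 1984 CPM of the S list and the 65 without it 4794. Among the 50, 17 had at least 3 of the 5 genes, and among the 65, 44 (67.7%). Over reference cells with the ependymal list, the S list of these 50 cells was at 1.997 (1.68 to 2.37), where that of the 34 was at 1.12. The S list did not choose the cells, but genes that move with it helped to form the groups and to choose the reference. Its level by group is therefore a description and no separate check of the label of cycling cells. Pooled, the S list was above the reference in the 69, though 16 of those cells had 0 or 1 S list molecules. In the 34 the interval of the S list ratio included 1. In those 34, cyclins and their kinases were at 0.717 (0.541 to 0.933) of the reference and replication licensing genes at 0.999 (0.699 to 1.39). Other cycle lists were raised in them. Cell cycle transcription factors were at 4.76 (3.685 to 6.085) and kinetochore genes at 3.494 (2.794 to 4.329). Histone and chromatin genes were at 2.461 (2.223 to 2.718), and condensin and cohesin genes at 2.19 (1.852 to 2.576). For the 50 chosen by list in place of clustering, the S list interval lay above 1. G2 and M genes were raised in the 69, and a part of them in the 34. Genes of those phases chose the cells, so their level cannot check the label.

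In the brain library the same rule found 248 of 7988 kept cells (3.11%, 2.74 to 3.51%), at a median of 1528 molecules. The share was lower than in the tail as counted, but the order depended on which cells were counted. Of the kept cells, 1645 in the tail and 3018 in the brain had at least 800 molecules. Among these, the rule was met without thinning by 110 in the tail (6.69%, 5.53 to 8.004%) and 228 in the brain (7.56%, 6.64 to 8.56%), intervals that overlap, a count added after seeing the data. With the same cells thinned to 800 molecules, and the rule and its limits applied to the thinned counts, the shares were 3.71% and 6.20% (187 cells). Of 2498 genes tested between the cycling cells of both libraries, 281 were higher in the tail (11.2%) and 491 lower (19.7%), 30.9% in all. Over the brain cells, the tail cells were at 0.539 (0.497 to 0.584) for the S list and 0.685 (0.659 to 0.713) for the G2 and M list. The list of anaphase genes was at 0.952 (0.866 to 1.045), an interval that includes 1. Without thinning, Mki67 had a molecule in 74.2% of the brain cells and 59.1% of the tail cells. Top2a (89.1% and 76.5%), Ube2c (67.7% and 47.0%) and Birc5 (62.9% and 43.5%) went the same way. Cdk1 went the other way, at 53.6% and 66.1%. Ccnd2 differed far more, at 198 CPM in the tail and 4264 in the brain, a ratio of 0.0464 (0.0337 to 0.0623).

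The identity genes parted the cycling cells of the libraries. Dlx1 and Dlx2, of forebrain interneuron precursors, had 0 molecules in the 115 tail cells and 648 and 340 in the 248 brain cells, so they were at least 122.0-fold and 64.0-fold lower in the tail. Tubb3, Stmn2 and Bcl11a had 0 tail molecules and 246, 192 and 181 in the brain. In the other direction, H19 had 2903 molecules in 91 tail cells and 6 in the brain cells, a ratio of 857 (393 to 2337). 1500015O10Rik, Ifitm3, Pcp4l1, Dynlrb2 and Lsp1 had 121 to 348 tail molecules and 0 in the brain. Ccno and Deup1, at 88 and 87 tail molecules, also had 0 in the brain, and the 20 caudal Hox genes had 168 and 0 molecules. Within the brain library, where 42.3% of genes tested were past 2-fold, the multiciliation programme was also higher in cells with at least 2 of the 5 genes, at 3.01-fold (2.54 to 3.55), but Ccno, Deup1 and Mcidas were at 0 there. Vim and Fabp7 were 4.68-fold (3.99 to 5.50) and 7.80-fold (6.07 to 10.1) higher in the tail cells, while Sox2 was at 0.624 (0.495 to 0.781).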

How the data were processed

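The authors made the deposited counts with the BD Rhapsody WTA Analysis Pipeline, version 1.10.1 per the file headers, which aligned reads to mouse GRCm38 with GENCODE vM19 and corrected errors in the molecular tags. Each file gives reads and molecules per cell and gene, and the corrected molecules were used. The tail library held 2972637 molecules in 2469 barcodes and the brain library 7462281 in 12111. Members, lists and comparisons were chosen with earlier results of these data known. Molecules were pooled over the cells of a class, and ratios of pooled levels have 95% conditional exact intervals; shares have Clopper-Pearson intervals. With 1 library a tissue no test was made, and intervals cover counting error only. Where a group had 0 molecules, a limit of 3 was used. Mitochondrial genes and genes of the rule and its limits were not called. For equal depth, cells were thinned to 800 molecules (seed 1), and shallower cells, 5 of the 115 and 291 of the 1450, were left out. Grouping used 1000 variable genes, 15 principal components and Ward linkage. Genes were named if in a fixed list, among the 15 with the largest ratio either way (6 for the tail against the brain), or among the 3 leading a group. The ratio procedure was tested on simulated data. Doublets were called with Scrublet in scanpy 1.11.5 and left in. Promoters came from RefSeq. Python 3.11.15, scipy 1.17.1 and, for TMM factors, edgeR 4.0.16 in R 4.3.3 were used. Alternatives covered scaling, depth, limits, the number of rule genes, the molecule minimum and the number of groups. Some genes that met the naming rule are not reported here.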

Additional observations from a re-analysis of the deposited data

Results flagged for a closer look

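In each library, cells with at least 2 of the 5 cycle genes were set against cells with none. The summed levels of 8 gene lists went opposite ways in the tail and the brain. The difference was not tested, since each tissue is 1 library, and tissue and age cannot be told apart. The immature neuron list was at a ratio of 0.0803 in the tail and 2.09 in the brain. The list of neurons that contact the cerebrospinal fluid was at 0.0350 and 1.52. In the brain, 0 of its 2 tested genes were higher past 2-fold, and 7 of the 10 listed had 0 molecules in the cycling cells. As a sum, the spinal dorsoventral progenitor list was at 0.587 and 1.63. Of its 12 genes tested in the brain, 1 was higher and 8 lower, with a median ratio of 0.175, so most did not follow the sum. The multiciliated ependymal list was at 2.12 in the tail and 0.0649 in the brain. Lists of cells other than these went the same way, with 1.96 and 0.0773 for Schwann and neural crest genes, 1.69 and 0.103 for oligodendrocyte genes, 1.51 and 0.182 for fibroblast genes, and 1.81 and 0.0927 for mural genes. In the tail these 4 lists had 40 to 57 molecules over the 115 cells, and 29 of the 46 oligodendrocyte molecules lay in 1 cell. Among tail cells of 1000 to 4000 molecules the oligodendrocyte and fibroblast lists turned to 0.698 and 0.807, so the opposite direction was lost for both, and the mural list was at 1.095 (0.673 to 1.71).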

How the results depend on the processing

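No paired analysis was possible because each tissue is 1 library. The 115 cells were 5.86% of kept tail cells, against 3.11% (61 cells) with at least 3 of the 5 genes, 8.81% (173 cells) without the collagen and keratin limits and 3.71% after thinning to 800 molecules. Median-ratio scaling put the S list at 3.30, the G2 and M list at 6.70, the multiciliation programme at 3.25 and the ependymal list at 1.88, and turned the neural progenitor list to 0.961 and the dissociation list to 0.987. With at least 3 of the 5 genes there were 320 genes higher, and the lists were at 4.36 for S, 9.20 for G2 and M, 1.69 for the programme, 1.31 for progenitors and 0.975 for ependymal genes, the last turned. That rule gave 441 genes between tail and brain, 124 higher and 317 lower. In cells of 1000 to 4000 molecules the immature neuron list was at 0.0605, and the oligodendrocyte, fibroblast and muscle lists turned to 0.698, 0.807 and 0.816. Weighting cells equally gave 1198 genes lower and a G2 and M list at 7.94. A minimum of 20 molecules gave 807 genes higher, and one of 200 gave 319 genes, 95 higher and 224 lower. Requiring the whole interval beyond 2-fold gave 373 genes, 177 higher and 196 lower. At 400 molecules a cell, and without thinning, Sox2 was found in 13.9% and 53.9% of the 115 cells, Vim in 61.7% and 89.6%, and Foxj1 in 13.04% and 43.5%. With 2 listed genes required, and after thinning to 800 molecules, the progenitor list marked 87.0% and 35.5%, the ependymal list 54.8% and 32.7%, and the immature neuron list 6.09% and 0.0%. Other choices were added after seeing the data. Without cells carrying 3 markers of a non-neural kind, Fabp4 fell to a ratio of 0.0, and Hba-a1, Hbb-bs and the erythroid list turned to 1.81, 2.04 and 1.60. Splitting by the ependymal list put the S ratio at 2.42. Against reference cells with the same list, the G2 and M ratio was 3.64 for the 34 cells and 10.05 for the 69. The cause of these changes was not tested.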
